A study of Mus musculus with 18 samples.

Results

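The untreated baseline of the study set liver tissue of diabetic mice against a cultured hepatocyte line, and its members were the 3 saline livers and the 3 vehicle libraries of AML12 hepatocytes, 6 of the 18 samples of the series. They were taken by their labels, and the contrast was chosen with earlier results of these data known. The study asked how recombinant mouse serum albumin (rMSA) acts on glucose metabolism, and it measured RNA in livers of treated mice and in treated AML12 hepatocytes. Neither set of 3 had received rMSA, so the contrast describes the model systems themselves, namely which functions of the liver and which of its cell types are represented in the line.

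The livers came from male db/db mice of the strain B6.Cg-dock7m Leprdb/++/J, in which a broken leptin receptor leads to overeating, obesity and high glucose. They had been given 3 injections of saline over 9 weeks, 1 every 3 weeks. The age of the mice is not in the labels. AML12 is an immortal line started from hepatocytes of a mouse that carried a transgene for human transforming growth factor alpha, and the labels give it as genotype WT and cell type hepatocyte. These cells grew with serum, insulin, transferrin, selenium and dexamethasone, were kept in serum-free medium overnight, and then had vehicle for 24 h. Whether the 3 vehicle libraries came from separate cultures is not in the labels, so their spread may be technical. The livers are a whole tissue with many cell types, whereas the line is a culture of 1 kind of cell.

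Hepatocytes carry out most of the work for which the liver is known. They secrete albumin, clotting factors and lipoproteins into plasma, turn ammonia into urea, make and store glucose, synthesize bile acids, and oxidize and conjugate drugs and hormones. This programme is held by a network of transcription factors that includes HNF4α, C/EBPα and the FOXA proteins, and hepatocytes in culture commonly lose part of it while genes of the cytoskeleton and of growth come up.

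The authors deposited TPM values, which divide a gene's reads by its length and bring all libraries to 1 common total. The liver table held 16533 genes and that of AML12 15579 genes, and 14257 were in both. Each library was rescaled to a sum of 1000000 over these shared genes, and levels below are in this rescaled TPM unless they are called deposited TPM. The 2 tables were normalized separately and differ in the gene models they list, and tissue, genotype, culture and experiment change together with the table. Their parts in any difference cannot be told apart, and no p-value was computed between the tables. A gene was instead called where the group means of log2(rescaled TPM + 1) differed by at least 2, which is a 4-fold difference for a well-expressed gene, and the 3 livers and the 3 AML12 libraries did not overlap. Values after ± are SDs over the n = 3 libraries of a group. A fold is the ratio of the group means and is given only where both means reach 1 TPM, and a log2 difference is always AML12 minus liver on the scale with 1 added. Read counts cannot be had from TPM, and the depth and the counting error at low values are therefore unknown.

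The line and the liver were far apart, and the libraries of each group lay close together. Pearson correlations of log2(rescaled TPM + 1) were taken over the compared genes, those with a mean of at least 1 over the 6 libraries. They were 0.986 to 0.993 among the livers, 0.996 to 0.998 among the AML12 libraries and 0.487 to 0.508 between the groups. The median SD of a gene over the 3 libraries was 0.168 in livers and 0.0862 in AML12 hepatocytes on this scale, against a median absolute difference of 1.24 between the groups. Of the 11349 compared genes, 1157 were called higher in the livers (10.2%) and 1904 higher in AML12 hepatocytes (16.8%). These percentages are the background for every count of list members below. In 88.9% of the compared genes the groups did not overlap, so the 4-fold threshold rather than the spread decided most calls. The median compared gene stood 0.72 higher in AML12 hepatocytes, and the balance of the calls moved with the scaling. The livers held 37.8% of the calls as reported, 26.9% when libraries were rescaled without ribosomal protein genes, 46.0% when they were rescaled without the 50 highest genes of each group, and 60.6% when they were centred on the median of genes with at least 1 in every library. That centring brought the median gene to 0.048, which is a shift of all differences by about the former median.

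**Figure D1:**
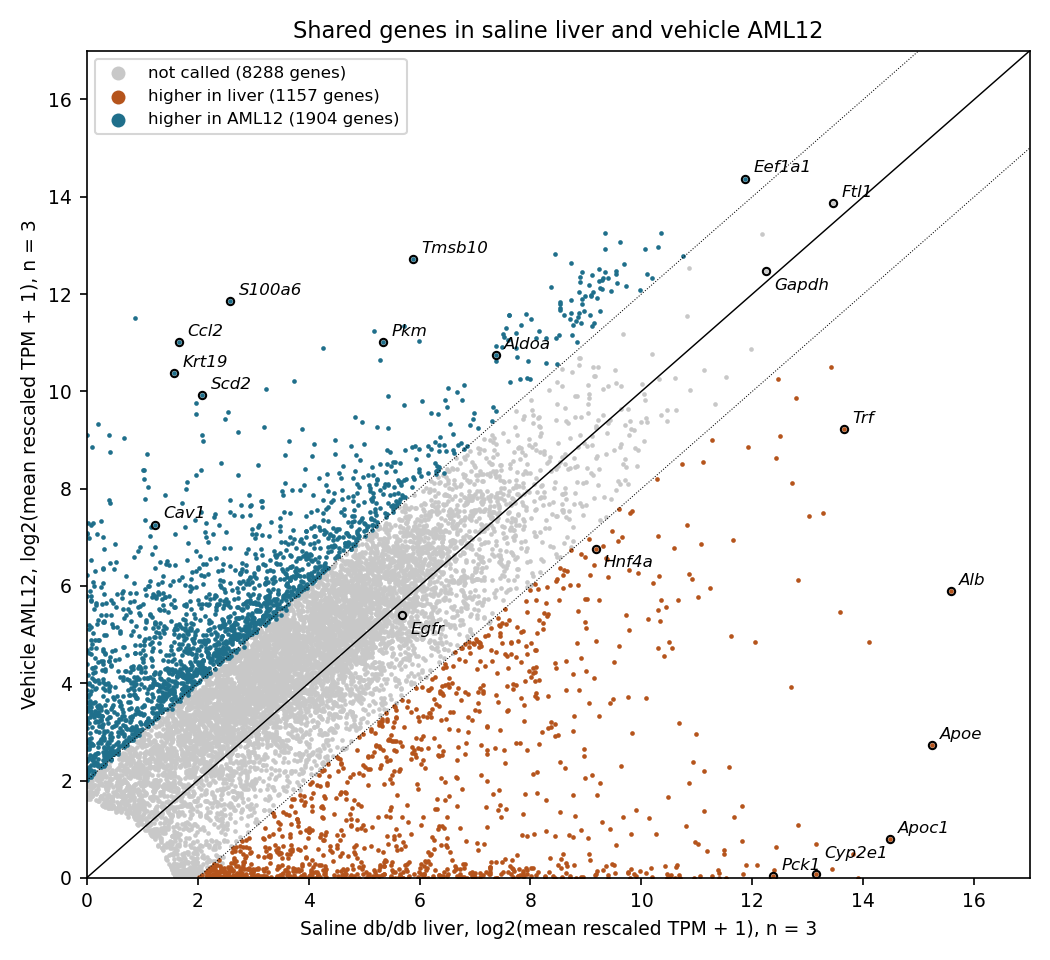
Mean level of each of the 11349 compared genes in the 3 saline livers (x axis) and the 3 vehicle AML12 libraries (y axis), both as log2(mean rescaled TPM + 1), with equality as a solid line and 4-fold differences as dotted lines. The 1157 genes called higher in liver (orange) reach far out along the lower edge, where Apoc1, Cyp2e1 and Pck1 lie, the 1904 called higher in AML12 (blue) include Krt19, Ccl2 and S100a6, and Egfr, Gapdh and Ftl1 lie near equality.

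The most abundant RNAs of the livers encoded secreted proteins, and those of the line encoded parts of the translation machinery. The 5 highest genes of the shared set in livers were Alb (48879 ± 11537), Apoe (38521 ± 4507), Apoc1 (22742 ± 2673), Serpina1b (17666 ± 1368) and Hamp (15298 ± 770.1). In AML12 hepatocytes the leaders were Eef1a1, a translation elongation factor (21186 ± 1127), the ferritin light chain Ftl1 (14983 ± 539), Tpt1, a tumour protein bound to translation and growth (9721 ± 511), and Rpl23a of the large ribosomal subunit (9704 ± 515). Ftl1 was abundant in both, at 11199 ± 1058 in livers. Of the 128 genes at 1000 or more in livers, 97 were called higher there, and of the 139 at that level in AML12 hepatocytes, 105 were called higher there. The 81 ribosomal protein genes took 3.60% to 3.71% of the rescaled TPM in livers and 26.5% to 27.8% in AML12 hepatocytes. Since the total is fixed, such a share lowers every other gene of the line, and its part in the other differences was not tested beyond the rescaling without these genes. Pseudogene copies such as Rpl34-ps1, described below, are not among the 81, and how reads were split with such copies was not tested.

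Albumin RNA, the protein given as treatment in the study, was present in the line at a small share of its liver level. Alb (gene 11657, GRCm38 chromosome 5, 90460870 to 90476602) stood at 60839, 47982 and 37817 in the 3 livers and at 69.5, 48.4 and 57.6 in the 3 AML12 libraries. The groups did not overlap and the liver mean was 836 times the AML12 mean. Trf, the iron carrier transferrin, was at 12419.9, 11631 and 14588 in livers and 624, 566 and 603 in AML12 hepatocytes, a ratio of 21.6. Of the 15 compared plasma carriers, 12 were higher in the livers and 0 in AML12 hepatocytes, with a median log2 difference of -5.61. Apoh, a phospholipid-binding plasma protein, and Pon1, the paraoxonase carried on HDL, were at 3770.5 ± 369 and 956 ± 284 in livers and at 0.198 ± 0.0955 and 0.0201 ± 0.0348 in the line. The heme carrier hemopexin (Hpx) stood at 9918 ± 1727 and 179.5 ± 7.77, and the selenium carrier Selenop at 5609 ± 1006 and 1221 ± 205. The call of Selenop was lost with TPM as deposited and without ribosomal protein genes. Cp, the copper-bearing ferroxidase ceruloplasmin, was not called and stood at 268 ± 109.7 in livers and 484 ± 46.7 in AML12 hepatocytes.

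Lipoprotein genes were among the widest differences. Apoe, the ligand by which remnant particles are taken up, stood at 37229, 34800.5 and 43533 in livers and 5.07, 6.22 and 5.66 in the line, 6819 times lower by the means. The small apolipoproteins Apoc1 (0.727 ± 0.484), Apoc3 (0.134 ± 0.232) and Apoa5 (0.0268 ± 0.0232) were below 1 TPM in AML12 hepatocytes against 22742 ± 2673, 11011 ± 908 and 2462 ± 497 in livers. Apob, the backbone of very low density lipoproteins, was 273 ± 144 in livers and 12.9 ± 1.91 in the line. Apoc2, the cofactor of lipoprotein lipase, had the highest level of the listed apolipoproteins in AML12 hepatocytes, with 123 ± 11.5 against 530.3 ± 106 in livers. Its call was lost with TPM as deposited, without ribosomal protein genes, and without liver 3 (log2 difference of -1.96). Among 18 compared genes of this list, 16 were higher in the livers and 1 in AML12 hepatocytes.

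Clotting factors, complement and protease inhibitors were mostly lower in the line as well, and a few genes were not called. The fibrinogen genes Fga and Fgb stood at 4151, 5289 and 3529.8 and at 5206, 6945 and 3925 in the 3 livers. No AML12 library reached 1 TPM for either of them. Of 16 compared coagulation genes, 15 were higher in the livers and 0 in AML12 hepatocytes. Habp2, a serine protease, was not called, although its mean was lower in the line (243 ± 14.8 in livers and 62.02 ± 4.57 in the line). Of 19 complement genes, 15 were higher in the livers and 0 in AML12 hepatocytes. C9 and Mbl2 were both listed at 0 in every AML12 library and at 348 ± 133 and 670.4 ± 68.5 in livers. Of the genes of the classical pathway in both tables, 3 were not called, as C1s1 stood at 77.6 ± 15.4 and 133 ± 18.8, C1ra at 139 ± 20.5 and 90.2 ± 2.398, and C2 at 87.8 ± 7.06 and 88.7 ± 1.06. C1qa, the part of its first component that macrophages make, was in the liver table only (128 ± 19.6 deposited TPM). C3, the central component, was called at 6732 ± 559.9 and 277 ± 7.15, the highest level of the listed complement genes in the line.

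Among 21 compared protease inhibitors and acute phase genes, 19 were higher in the livers and 0 in AML12 hepatocytes. The α1-antitrypsin copies differed from each other in the line, with Serpina1b at 27.7 ± 4.49 and Serpina1d at 43.4 ± 9.47 but Serpina1a at 1.13 ± 0.285 and Serpina1c at 0.395 ± 0.684, while the 4 copies stood at 7273 to 17666 in livers. These near-identical copies share reads, so the split between them is uncertain. Members not called were Saa3, a serum amyloid A made outside the liver too (42.5 ± 16.9 and 154 ± 12.8), and the siderophore-binding lipocalin Lcn2 (639 ± 92.4 and 226 ± 15.8). Hamp, the iron hormone hepcidin, had the widest log2 difference of all compared genes (-13.90), with 14436, 15540.0 and 15919 in livers and listed at 0 in all 3 AML12 libraries. In rMSA livers Hamp stood at 1317 to 3717, so the size of this difference, though not its direction, depended on the livers chosen.

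A small share of promoters held letters of a site of HNF4, a liver factor, and the share was larger among genes called higher in the livers than among the others compared, a difference that was not tested. Of the genes called higher in liver, 895 had a RefSeq promoter on GRCm38.p6, from 250 bases before to 50 after the start, and of those called higher in AML12, 1461. The HNF4 letters CAAAGTCCA were in 2.12% of the former, 0.548% of the latter, 0.411% of compared genes not called and 0.555% of all 27025 genes of the promoter table, read on both strands. In the same order, the AP-1 letters TGACTCA were in 7.71%, 6.16%, 3.98% and 5.95%, and the TATA box letters TATAAA in 15.9%, 9.65%, 7.67% and 15.7%. Matches of different motifs shared bases in 0 promoters of called genes. These are matches of letters and not measured sites. The 120 bases before the start are printed for the genes with the widest differences among those with a match in that stretch and were thus picked after their values were seen, with the match in capitals. The first 3 show HNF4 letters in genes higher in liver, and the last 3 AP-1 letters in genes higher in AML12 hepatocytes. AP-1 letters were not more frequent on the side of the line (6.16%) than on the side of the livers (7.71%), so the last 3 are examples only.
Cyp2c70: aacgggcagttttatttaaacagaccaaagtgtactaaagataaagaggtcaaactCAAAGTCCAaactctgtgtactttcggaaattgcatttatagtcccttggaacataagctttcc
Aspdh: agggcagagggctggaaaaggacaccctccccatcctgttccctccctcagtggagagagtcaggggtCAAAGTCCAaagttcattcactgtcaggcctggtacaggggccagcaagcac
Cyp3a41a: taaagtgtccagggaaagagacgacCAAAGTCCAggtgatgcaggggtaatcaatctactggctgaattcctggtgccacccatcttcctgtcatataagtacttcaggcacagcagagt
Ptgds: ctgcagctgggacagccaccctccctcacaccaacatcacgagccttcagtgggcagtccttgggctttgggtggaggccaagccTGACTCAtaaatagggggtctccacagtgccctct
Entpd2: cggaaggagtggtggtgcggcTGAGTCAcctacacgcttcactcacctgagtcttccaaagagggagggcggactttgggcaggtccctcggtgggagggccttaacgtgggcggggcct
Ezr: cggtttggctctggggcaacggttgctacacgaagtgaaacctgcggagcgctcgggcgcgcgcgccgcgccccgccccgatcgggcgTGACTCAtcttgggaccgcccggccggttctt

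The HNF4 letters lay in Cyp2c70 (GRCm38 chr19:40187287-40187406, minus strand), an enzyme of muricholic acid synthesis with 245 ± 52.9 and 0.0536 ± 0.0553, in Aspdh (chr7:44465315-44465434, plus strand) with 192 ± 22.3 and 0.0938 ± 0.00581, and in Cyp3a41a (chr5:145720137-145720256, minus strand) with 97.9 ± 76.3 and 0.104 ± 0.111. The AP-1 letters lay in Ptgds (chr2:25469750-25469869, minus strand), a prostaglandin D synthase at 1.12 ± 0.556 and 418 ± 24.6, in Entpd2 (chr2:25395754-25395873, plus strand), an enzyme that cleaves extracellular ATP at 2.92 ± 0.871 and 739 ± 13.97, and in Ezr (chr17:6782781-6782900, minus strand), which encodes ezrin, a linker of membrane and actin, at 2.91 ± 0.372 and 309.9 ± 9.22.

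Genes in the liver table and not in the AML12 table allow no fold. They numbered 2276, took 13.3% to 13.8% of the deposited TPM of the saline livers, and 107 of them reached 100 deposited TPM there. The columns of the vehicle libraries sum to 1000000 less 23.35 to 24.85. If the authors scaled over all genes they counted, all genes missing from that table together held no more than about 25 TPM in a vehicle library. Apoa2, the second protein of HDL, stood at 21989.6 ± 2233 deposited TPM in livers, Ass1, the argininosuccinate synthase of the urea cycle, at 14393 ± 1079, and Ahsg, the plasma glycoprotein fetuin A, at 12134 ± 221. Further down were the inhibitor Serpina3k (8934 ± 20.97), the tyrosine-degrading Hpd (7439.8 ± 259), the methionine adenosyltransferase Mat1a (5654 ± 538) and the fibrinogen chain Fgg (3588 ± 825). Fbp1, the fructose bisphosphatase of gluconeogenesis (2246 ± 95.1), and Plg, plasminogen (1521 ± 32.2), were also of this kind. In the other direction 1322 genes were in the AML12 table only, the highest of which were mostly predicted gene models, and among them were Wnt10a, a secreted Wnt ligand (211 ± 6.704), and Pax2, a developmental transcription factor of kidney (108 ± 5.12).

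Most genes for the disposal of ammonia and amino acids were lower in the line, and some of them were listed at 0 there. Of 8 compared genes of the urea cycle and ammonia, 6 were higher in the livers and 0 in AML12 hepatocytes. Cps1, which fixes ammonia as carbamoyl phosphate, stood at 1737, 1831 and 1420.2 in livers and was listed at 0 in every AML12 library, as was Arg1, the arginase that releases urea, against 3023, 3248 and 2567. Otc, between them in the cycle, was 218 ± 82.6 and 0.0268 ± 0.0232, and Asl, which also serves arginine synthesis in other cells, was 1844 ± 185 and 75.3 ± 2.29, the highest level in the line among enzymes of the cycle. Glul and Glud1, the glutamine synthetase and the glutamate dehydrogenase, were not called at 495 ± 16.7 and 175 ± 5.79 and at 780.4 ± 59.7 and 272 ± 19.1. Of 34 compared genes of amino acid breakdown, 29 were higher in the livers and 0 in AML12 hepatocytes, with a median log2 difference of -5.39. Gnmt, which burns off excess methyl groups, was 9072 ± 734 in livers and 0.626 ± 0.06697 in the line. Tat, the tyrosine aminotransferase, was 5509 ± 239 and 0.553 ± 0.156, and the serine dehydratase Sds 2711 ± 304 and 0.07702 ± 0.0754. Tdo2, which opens the tryptophan ring, was 2684 ± 583 in livers and listed at 0 in the line. The aminotransferases Got1 (115 ± 7.104) and Gpt (51.5 ± 2.87) and the fumarylacetoacetase Fah (65.8 ± 1.41) remained measurable in AML12 hepatocytes and were called lower, from 2150.2 ± 173, 602 ± 57.5 and 1178 ± 77.4.

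Markers of both zones of the lobule were low in the line. Hepatocytes near the portal vein specialize in urea and glucose production, and those near the central vein in glutamine synthesis and drug oxidation. Of 12 compared periportal markers, 10 were higher in the livers and 1 in AML12 hepatocytes. The marker higher in the line was Cdh1, E-cadherin (2.72 ± 0.451 and 76.6 ± 8.22). Of 11 compared pericentral markers, 9 were higher in the livers and 0 in AML12 hepatocytes. Cyp2e1, the ethanol-oxidizing P450, stood at 6654, 10596 and 10068 in livers and 0, 0.15 and 0 in the line, and Oat, the ornithine aminotransferase, at 3152 ± 545 and 30.5 ± 1.96. The pericentral genes that were not called were Glul, given above, and Rnf43, an inhibitor of Wnt receptors (10.1 ± 0.605 and 16.2 ± 1.06).

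Most genes of glucose output were lower in the line as well, and the mitochondrial form of the enzyme that makes phosphoenolpyruvate was higher. Pck1, the cytosolic carboxykinase (gene 18534, chromosome 2, 173153073 to 173159274), stood at 5548, 5140.2 and 5169 in livers and 0.03, 0 and 0.03 in AML12 hepatocytes. Pck2, its mitochondrial counterpart, stood at 5.18, 3.75 and 5.96 in livers and 82.5, 84.8 and 83.8 in the line. The groups of neither gene overlapped, and Pck2 was 16.9 times higher in the line. The glucagon receptor Gcgr was 163 ± 24.4 in livers and listed at 0 in all AML12 libraries, and Creb3l3, a fasting-induced transcription factor, was 233 ± 29.5 and 0.107 ± 0.0837. G6pc, the glucose-6-phosphatase (681 ± 91.98 deposited TPM in livers), was not in the AML12 table, and its transporter Slc37a4 was 399 ± 53.6 and 13.5 ± 0.596. Of 11 compared genes, 7 were higher in the livers and 1 in AML12 hepatocytes, and 3 were not called, among them the cytosolic malate dehydrogenase Mdh1 (654 ± 62.6 and 170.1 ± 0.502). The glycogen synthase Gys2 (64.9 ± 10.9 deposited TPM) and the phosphorylase Pygl (215 ± 18.9) were in the liver table only. Ppp1r3b, which targets a phosphatase to glycogen, was 129.7 ± 8.93 and 0.6496 ± 0.1199, whereas Gyg, the primer of glycogen, was 4.36 times higher in the line (8.59 ± 1.56 and 37.5 ± 1.17), a call lost without the 50 highest genes, with median centring, and without liver 3 (log2 difference of 1.87).

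Glycolysis genes were called at shares near the background, and several enzyme forms differed widely. Of 27 compared genes, 4 were higher in the livers and 5 in AML12 hepatocytes, and the median log2 difference of 0.65 was near that of all compared genes and turned to -0.062 with median centring. Gapdh stood at 4849 ± 403 and 5688 ± 205, and the enolase Eno1 at 743 ± 100.04 and 1159 ± 27.7. The aldolase of most tissues, Aldoa, was higher in the line and stood at 187, 139 and 167 in livers and 1703, 1692 and 1737 in the line. The pyruvate kinase Pkm was 52.3 times higher in AML12 hepatocytes (48.7, 31.5 and 38.4 in livers, 2039, 1993 and 2169 in the line). The liver form Pklr was not called and stood at 62.9, 84.4 and 143 in livers and 146, 142 and 148 in the line, so the line held both kinases with Pkm ahead. Hk1, the hexokinase of most tissues, stood at 3.14 ± 0.495 and 96.5 ± 3.103. Khk, the fructokinase, was 20.6 times lower in the line (583 ± 107 and 28.4 ± 2.28).

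Shares within a pair of related genes do not depend on how the tables were scaled. Of 30 listed pairs of a liver form and another form, 22 had both genes in both tables. In 10 pairs the liver form was higher in every liver and the other form in every AML12 library, in 7 the same form led in all 6 libraries, and the other 5 were mixed. Of the 10, 6 are described. For the glucose transporters Slc2a2 and Slc2a1 (GLUT2 and GLUT1), the share of the liver form was 77.5% to 80.9% in livers and 2.66% to 3.44% in the line. Pklr held 56.4% to 78.8% of the pair with Pkm in livers, the widest spread among livers of these pairs, and 6.39% to 6.67% in the line. The desaturase Scd1 held 99.5% to 99.7% against Scd2 in livers and 25.9% to 26.9% in the line. The acyl-CoA synthetase Acsl1 held 93.97% to 97.4% against Acsl4 in livers and 8.53% to 10.4% in the line. The remaining switches described were Pck1, which held 99.9% against Pck2 in livers and 0% to 0.0365% in the line, and Cyp1a2 against Cyp1b1, where both genes were below 1 TPM in the line.

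Some pairs kept their liver form in the line. Cpt1a, the carnitine palmitoyltransferase of liver, held 99.6% to 99.9% against Cpt1c in livers and 99.98% to 100% in the line, with levels of 233 ± 49.3 in livers and 143 ± 10.5 in the line. The retinal dehydrogenase Aldh1a1 led Aldh1a3 in all libraries (99.9% and 99.7% to 99.9%), and the phosphofructokinase Pfkl led Pfkp (87.8% to 93.8% and 86.97% to 87.9%). The export pump Abcc2 held 99.2% to 99.3% against Abcc1 in livers and 69.9% to 74.4% in the line, and the connexin Gjb1 held 99.6% to 99.8% against Gja1 and 66.2% to 68.6%. Gjb1 itself was 792 ± 85.1 in livers and 3.93 ± 0.323 in the line, so a kept share did not mean a kept level. In the mixed pairs, the insulin receptor Insr held 96.6% to 97.3% against the IGF1 receptor Igf1r in livers and 48.8% to 55.5% in the line, and E-cadherin Cdh1 held 5.12% to 9.67% against N-cadherin Cdh2 in livers and 51.6% to 53.1% in the line.

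**Figure D2:**
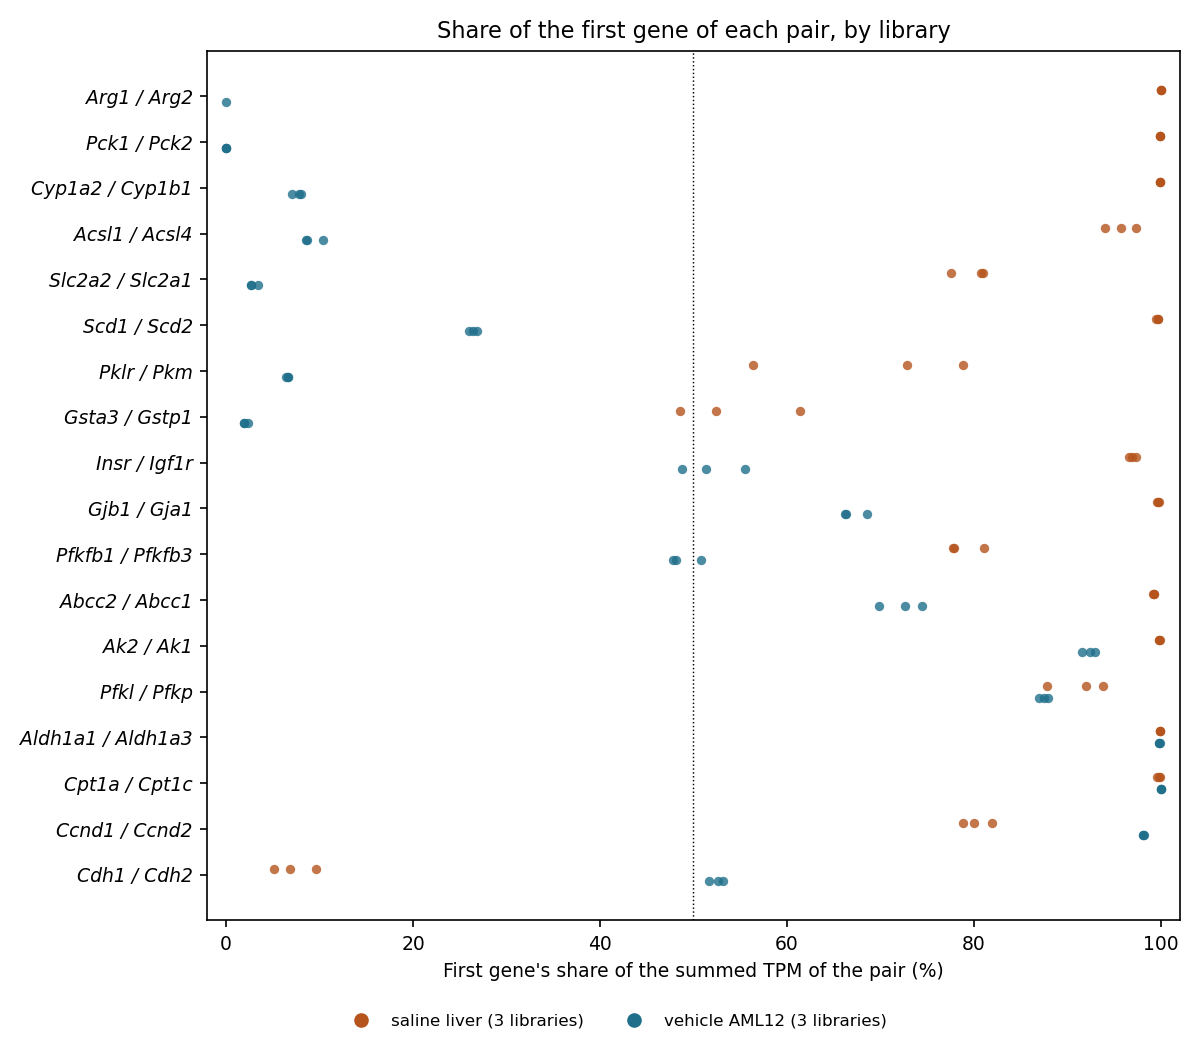
Share of the first gene in the summed TPM of each of 18 of the 22 pairs (x axis, percent), with 1 point per library, for 3 saline livers (orange) and 3 vehicle AML12 libraries (blue). The 6 switching pairs drawn have orange points above 50% and blue points below it, as Scd1 / Scd2 does, while Cpt1a / Cpt1c and Aldh1a1 / Aldh1a3 stay at the right edge in both groups. For Arg1 / Arg2 both genes are at 0 in some AML12 libraries, which then have no point.

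RNAs for burning fat were low in the line and those for cholesterol synthesis high. Of 29 compared genes of fatty acid oxidation and ketone bodies, 22 were higher in the livers and 1 in AML12 hepatocytes. Some calls lay near the 4-fold threshold, and the following genes are named for that reason. The β-oxidation enzymes Acadm, Hadh, Hadhb and Echs1 lost their calls with TPM as deposited and without ribosomal protein genes. Acadvl and the carrier Slc25a20 lost theirs without ribosomal protein genes. The log2 differences without those genes were -1.93 (Acadvl) to -1.60 (Hadh). The fatty acid transport proteins Slc27a2 and Slc27a5 were 889 ± 145 and 1172 ± 68.8 in livers, with 0 and 0.0134 ± 0.0232 in the line. Acot1, which hydrolyses acyl-CoA, was the member higher in AML12 hepatocytes (28.4 ± 10.1 and 241 ± 1.94), and Cpt1a and the dehydrogenase Acadl (166 ± 17.1 and 114 ± 2.19) were not called.

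For fatty acid synthesis and storage, 12 were higher in the livers and 3 in AML12 hepatocytes among 31 compared genes. Scd2 stood at 4.17, 2.56 and 3.02 in livers and 1056, 978 and 858 in the line, 297 times higher, and Scd1, which was not called, at 1191, 522 and 831 in livers and 388, 351 and 301 in the line. The desaturases Fads1 and Fads2 were not called either, with 143 ± 10.8 and 441 ± 13.2 and with 301 ± 30.8 and 421 ± 15.3. Proteins of lipid droplets and fat uptake in liver were called lower, with the perilipin Plin5 at 255 ± 53.7 and 0.0335 ± 0.029, the fatty acid receptor Cd36 at 101 ± 40.2 and 0.154 ± 0.0406, and Dgat2, which completes triglycerides, at 771 ± 128 and 26.1 ± 0.356. Plin3, the perilipin of most cells, was 7.33 times higher in the line (33.6 ± 4.33 and 246 ± 2.89).

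Of 22 compared cholesterol genes, 1 was higher in the livers and 12 in AML12 hepatocytes, with a median log2 difference of 2.32. Median centring ended 4 of the 12 calls and left a median of 1.599, and the median was 0.45 against rMSA livers and 1.18 for insulin-treated AML12 hepatocytes. Fdps, the farnesyl diphosphate synthase, stood at 46.8, 43.2 and 36.99 in livers and 918, 951 and 985 in the line, a ratio of 22.5. The squalene epoxidase Sqle was 5.28 ± 1.22 and 175 ± 10.8, a ratio of 33.1, and the decarboxylase Mvd 3.34 ± 0.172 and 72.97 ± 0.0487. Ebp, a sterol isomerase of a late step, was not called and stood at 246 ± 12.9 and 245 ± 13.9.

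Bile acid genes and drug enzymes were mostly lower in the line, and some export pumps were not called lower. Of 24 compared bile acid genes, 20 were higher in the livers and 1 in AML12 hepatocytes. The uptake carrier Slc10a1 (NTCP) was 479.6 ± 106 and 0.988 ± 0.171, and the conjugating enzyme Baat 182 ± 20.5 and 0.0871 ± 0.0453. The pumps of the ABCC family were not lower by a call, with Abcc2 at 145, 142 and 108 in livers and 62.9, 55.3 and 44.3 in AML12 hepatocytes, Abcc3 at 95.2 ± 13.4 and 149 ± 3.4, and Abcc4 called higher in the line at 4.57 ± 1.02 and 109 ± 14.5. Of 21 compared P450 genes and their reductase, 16 were higher in the livers and 0 in AML12 hepatocytes, and a further 19 were in the liver table only. Cyp2a5, which oxidizes coumarin and nicotine, was 2872 ± 839.9 in livers and 0.486 ± 0.0985 in the line, and Cyp2d26 2330.0 ± 347 and 0.469 ± 0.0606. Por, the reductase that feeds electrons to every microsomal P450, was 1263 ± 84.98 and 129 ± 4.26, and Cyp3a13 was not called at 166 ± 55.3 and 59.03 ± 4.49.

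Of 33 compared conjugating enzymes, 24 were higher in the livers and 0 in AML12 hepatocytes. The glutathione transferase Gsta3 stood at 1500.2 ± 176 and 25.5 ± 1.69 and Gstm1 at 3855 ± 195 and 460.3 ± 50.03, while Gstp1 was at 1278, 1069.6 and 1472 in livers and 1157, 1229 and 1273 in the line and was not called. The sulfotransferase Sult1a1 was 901 ± 202 and 0.874 ± 0.181. Among 19 surface receptors and transporters, 17 were higher in the livers and 0 in AML12 hepatocytes, with the glutamine carrier Slc38a3 at 1949 ± 278 and 4.18 ± 0.569. The asialoglycoprotein receptor Asgr1 (581 ± 84.1 deposited TPM in livers) was in the liver table only. Of 21 major urinary protein genes, the pheromone carriers of mouse liver, 19 were in the liver table only, and the others, Mup20 (379 ± 199 in livers) and Mup12 (30.8 ± 10.7), were listed at 0 or near 0 in the line. These genes are near copies of each other and share reads.

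Genes of the growth hormone axis were more often called lower in the line than higher, and those called among iron genes were all lower. Of 19 compared genes of the growth hormone and IGF axis, 7 were higher in the livers and 3 in AML12 hepatocytes, the latter a share near the background. Igf1, the main liver hormone under growth hormone, was 88.9 ± 25.4 and 0.0234 ± 0.0153, and the growth hormone receptor Ghr 244 ± 38.2 and 5.22 ± 0.887. Igfbp4, a carrier of IGFs, was not called and stood at 2577 ± 345 and 859.7 ± 33.8. The kinase Jak2 was 6.65 times higher in the line (4.02 ± 1.82 and 26.7 ± 2.55), a call lost with median centring. Of 12 iron genes, 7 were higher in the livers and 0 in AML12 hepatocytes, with the iron sensor Tfr2 at 437 ± 44.1 and 0.7802 ± 0.0866, and the ferritin heavy chain Fth1 at 4646 ± 437 and 9619 ± 609, not called.

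Transcription factors of the hepatocyte programme were partly lower in the line and partly not called. Hnf4a, the nuclear receptor at the head of the network (gene 15378, chromosome 2, 163506811 to 163572907), stood at 571, 528 and 633 in livers and 111, 105 and 108 in AML12 hepatocytes, 5.34 times lower, a call lost narrowly when libraries were rescaled without ribosomal protein genes. Cebpa, which encodes C/EBPα, stood at 237, 254 and 334 in livers and 1.86, 2.56 and 2.57 in the line, 118 times lower. Its relative Cebpb was not called at 245, 241 and 329.9 in livers and 137, 146 and 108 in the line. Both factors had higher values in every liver than in any AML12 library. Foxa2 was not called, with 23.9, 22.2 and 26.1 in livers and 91.5, 83.7 and 82.3 in the line. Of 34 compared factors, 15 were higher in the livers and 1 in AML12 hepatocytes, and 18 were not called. Those lower in the line included the xenobiotic receptor Nr1i2 (76.2 ± 1.01 and 0.1105 ± 0.0958), the glucose-responsive Mlxipl (ChREBP, 89.7 ± 5.08 and 1.38 ± 0.146) and the heterodimer partner Rxra (241 ± 24.6 and 26.4 ± 1.39). The glucocorticoid receptor Nr3c1 (12.9 ± 4.05 and 22.3 ± 3.501) and the lipogenic factor Srebf1 (62.5 ± 14.4 and 135 ± 7.83) were not called. Nr1i3, the constitutive androstane receptor (129 ± 37.3 deposited TPM in livers), was in the liver table only.

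**Figure D3:**
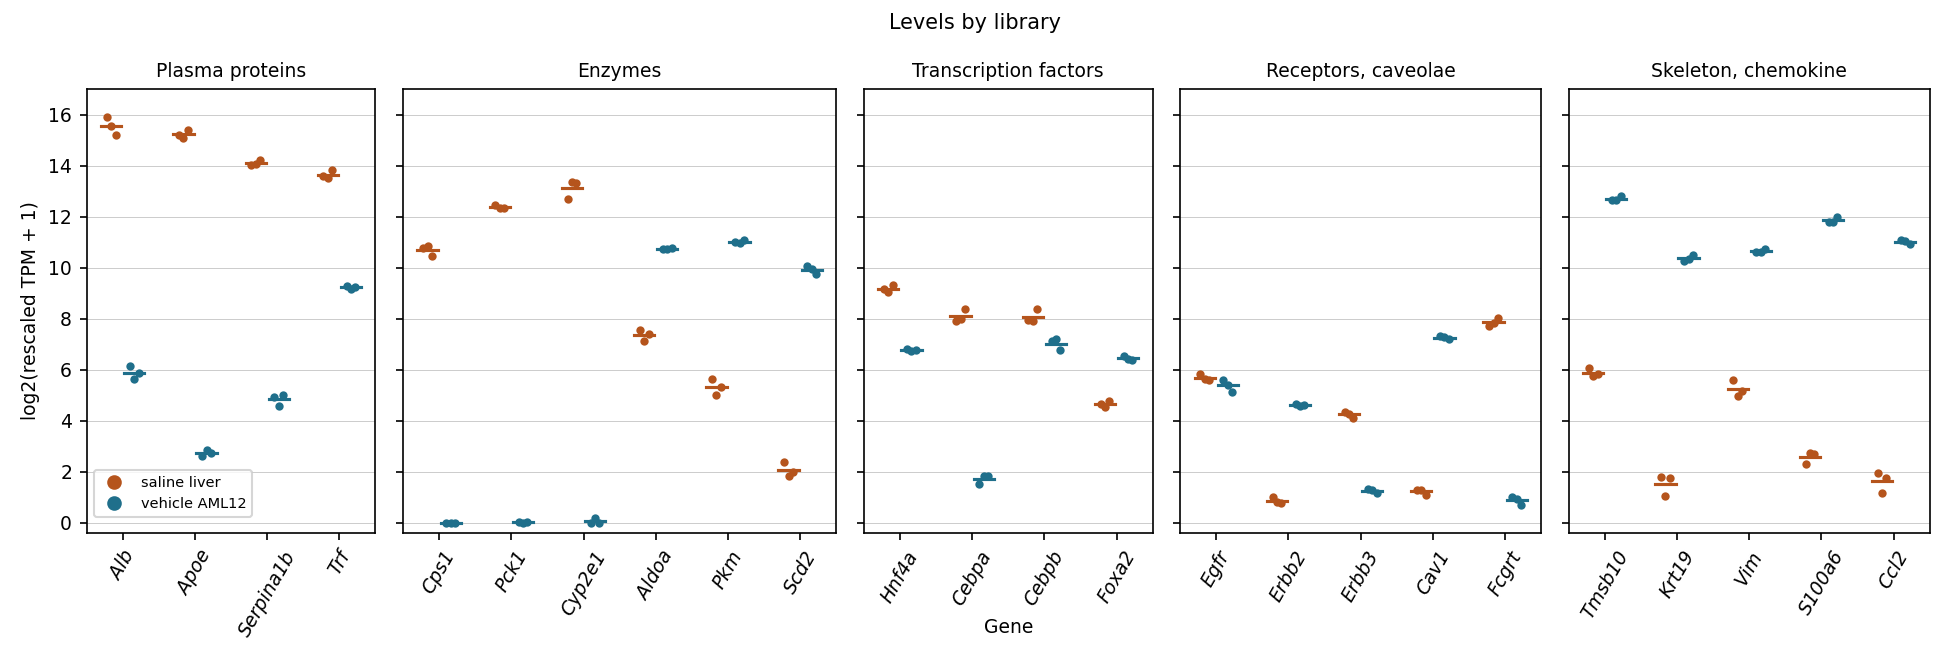
Levels of selected genes in each library as log2(rescaled TPM + 1) on the y axis, with the 3 saline livers in orange, the 3 vehicle AML12 libraries in blue and a bar at the mean of each group's log2 values. The 3 points of a group lie close together, Egfr lies near equality, and Cps1, Pck1 and Cyp2e1 of the line lie at or near 0.

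The study examined the EGF receptor, caveolin and AKT in AML12 hepatocytes, as protein and its phosphorylation. It also reported more phosphorylated AKT and FOXO1 with rMSA in primary hepatocytes and db/db livers, and more phosphorylated EGF receptor in primary hepatocytes. The levels here are RNA and do not measure those proteins. By RNA, the receptor and the main AKT kinases were at similar levels in the livers, and caveolin was far lower there. Egfr, the receptor itself (gene 13649, chromosome 11, 16752203 to 16913907), stood at 56.5, 48.6 and 47.01 in livers and 47.7, 41.4 and 34.1 in the line, where the groups overlapped. Of its partners, Erbb2 was higher in the line, with 1, 0.74 and 0.73 in livers and 24.1, 22.9 and 23.8 in the line. Erbb3 was higher in the livers, with 19.2, 18.3 and 16.4 in livers and 1.53, 1.42 and 1.22 in the line. Errfi1, an inhibitor that binds the active receptor, was 71.03 times lower in the line (821, 901 and 857 in livers, 13.4, 12.8 and 10.2 in the line). Among ligands, Nrg1, which binds ERBB3, stood at 0.2003 ± 0.03696 and 61.99 ± 5.1, Hbegf at 0.929 ± 0.0961 and 19.3 ± 1.28, and Areg at 0.0578 ± 0.0505 and 13.2 ± 1.29, all called higher in AML12 hepatocytes. Tgfa was not called (6.93 ± 0.359 and 26.1 ± 3.99). That value is for the mouse gene, and RNA of the human transgene was not measured apart. Of the 11 compared members, 2 were higher in the livers and 4 in AML12 hepatocytes.

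Caveolae, the flask-shaped pits that carry albumin across endothelium, had their genes at low levels in whole liver and higher in the line. Cav1, caveolin-1 (gene 12389, chromosome 6, 17306335 to 17341328), stood at 1.45, 1.46 and 1.13 in livers and 158, 154 and 145 in AML12 hepatocytes, 113 times higher. Cav2 and the coat protein Cavin1 followed, with 0.809 ± 0.451 and 65.7 ± 12.5 and with 4.995 ± 0.795 and 109 ± 5.86. Fcgrt, the receptor that rescues albumin from breakdown, went the other way, at 207, 224 and 261 in livers and 1.03, 0.88 and 0.63 in the line, and its partner B2m was not called (4030.4 ± 1301 and 1866 ± 207). Of 12 compared genes of caveolae and albumin binding, 1 was higher in the livers and 6 in AML12 hepatocytes. The caveolar genes Cavin2 and Pacsin2 are named because their calls on the side of the line depended on the scaling. Both calls were lost with median centring (log2 differences of 1.53 and 1.41), and that of Pacsin2 also without the 50 highest genes (1.87). The saline livers also held endothelial markers, given below, and their part in these levels was not tested.

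In the list of insulin, glucagon and growth factor receptors with the AKT pathway, 4 were higher in the livers and 4 in AML12 hepatocytes of 24 compared, and the median log2 difference of -0.18 turned to 0.013 with TPM as deposited and to 0.21 without ribosomal protein genes. Insr was not called at 18.8, 20.03 and 15.2 in livers and 11.5, 9.33 and 8.45 in the line, and the AKT kinases Akt1 (64.6 ± 5.91 and 137 ± 0.772) and Akt2 (74.6 ± 5.22 and 55.98 ± 2.11) were not either. The adaptor Irs2 (4.28 ± 0.946 and 34.01 ± 5.43) and the kinase Src (1.99 ± 0.1702 and 46.2 ± 2.81) were called higher in the line, and Foxo1, the AKT target that drives glucose production, lower (36.1 ± 2.08 and 5.66 ± 0.0943).

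Genes of the cytoskeleton and of proteins grouped with it stood out on the side of the line. Of 45 compared, 1 was higher in the livers and 27 in AML12 hepatocytes, with a median log2 difference of 3.06. S100a6, a calcium-binding protein of growing cells, stood at 3.97, 5.68 and 5.44 in livers and 3499, 3562 and 4003 in the line, 733 times higher. Tmsb10, which sequesters actin, stood at 65.2, 53.3 and 56.2 in livers and 6416, 6446 and 7239.7 in the line. Krt19, a keratin of bile ducts that hepatocytes do not normally make (gene 16669, chromosome 11, 100140810 to 100145926), stood at 2.47, 1.09 and 2.35 in livers and 1229.8, 1304 and 1433 in the line, 671 times higher, with Krt7 at 1.14 ± 0.172 and 263 ± 22.4. The annexin Anxa3 was 2.94 ± 1.02 and 870.0 ± 75.2, the lectin Lgals1 52.05 ± 7.91 and 2598 ± 40.4, and vimentin (Vim), the intermediate filament of mesenchymal cells, 37.9 ± 8.93 and 1601 ± 66.9. Actb, the reference gene β-actin, was not called at 354 ± 35.9 and 1171 ± 103, and Acta2, smooth muscle actin, was 2.06 ± 0.333 in livers and 0.0234 ± 0.0406 in the line.

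Most matrix and adhesion genes that were called were higher in the line. Of 34 compared, 3 were higher in the livers, a share near the background, and 18 in AML12 hepatocytes. Median centring ended calls on the side of the line, among them those of Col4a1, Col4a2, Itgb6 and Thbs1, which are named for that reason. The tight junction gene Cldn6 (0.227 ± 0.161 and 127 ± 9.47), the laminin Lama5 (1.09 ± 0.141 and 55.3 ± 3.22) and the protease inhibitors Timp1 (1.46 ± 0.489 and 55.7 ± 3.799) and Timp2 (10.9 ± 2.46 and 278 ± 8.03) were higher in the line. Fn1, plasma fibronectin, was 40.5 times lower (295, 345 and 354 in livers, 9.19, 7.83 and 7.49 in the line), and Col1a1 and Timp3, of fibroblasts, were lower as well (4.88 ± 0.711 and 0.0603 ± 0.0348, and 23.4 ± 2.74 and 0.0402 ± 0.0201). In the list of epithelial-mesenchymal transition, 1 was higher in the livers and 3 in AML12 hepatocytes of 13. The epithelial Cdh1 and the mesenchymal Vim were both higher in the line, and the factor Snai1 was not called (2.52 ± 0.319 and 0.442 ± 0.253).

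In the list of targets of YAP, a growth regulator that senses cell shape and crowding, and of SRF, a factor of actin genes, 9 of 19 compared genes were higher in the line and 0 lower. Ankrd1 stood at 0.12, 0 and 0.1 in livers and 472, 451 and 465 in the line, the receptor kinase Axl at 22.4 ± 3.25 and 319 ± 23.2, and Amotl2 at 12.2 ± 1.17 and 141 ± 12.2. Ccn2, another target, was not called (20.05 ± 7.82 and 19.3 ± 1.54), nor was Yap1 itself (24.5 ± 0.888 and 36.5 ± 2.701). Of 10 compared genes of fetal liver and stem cells, 1 was higher in the livers and 8 in AML12 hepatocytes. They included Cd24a, a surface protein of progenitors (3.24 ± 1.41 and 550.1 ± 62.7), Sox4 (0.909 ± 0.293 and 104 ± 16.96) and Hmga2, a chromatin protein of embryonic cells (0.05004 ± 0.0466 and 50.98 ± 3.36). Prom1 was lower (3.59 ± 1.797 and 0.006696 ± 0.0116), a call lost with TPM as deposited and without liver 1 or liver 2 (log2 differences of -1.88 and -1.92).

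Cyclin D1, its kinase and several inhibitors of division were higher in the line, and replication genes as a list were near the background. Of 37 compared cell cycle and replication genes, 1 was higher in the livers and 7 in AML12 hepatocytes. Ccnd1, cyclin D1, was 34.2 times higher in the line (6.88, 6.77 and 4 in livers, 217, 197 and 190.1 in the line), and its kinase Cdk4 16.1 times (49.4, 54.1 and 52.5 in livers, 820.2, 846 and 846 in the line). Pcna, the replication clamp, was not called (39.7 ± 6.71 and 105 ± 7.35), nor was the ribonucleotide reductase Rrm2 (15.2 ± 4.46 and 4.79 ± 0.849), and the thymidine kinase Tk1 was lower in the line (35.2 ± 2.98 and 5.04 ± 0.5499). The INK4 inhibitor Cdkn2a was at 0.23, 0.13 and 0.23 in livers and 157, 155 and 169 in the line, and Cdkn2b at 0.227 ± 0.207 and 80.7 ± 1.01. Both were near 0 in every liver and well expressed in every AML12 library. Trp53 was 12.7 times higher in the line (19.5 ± 3.32 and 248 ± 3.75) and its target Bax 8.63 times (41.8 ± 6.79 and 361 ± 6.95), while the target Cdkn1a (p21) was not called (173 ± 39.3 and 198 ± 8.77). Of 18 compared inhibitors and p53 targets, 1 was higher in the livers and 7 in AML12 hepatocytes.

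Genes for making and importing amino acids were higher in the line. Phgdh, the first enzyme of serine synthesis, stood at 0.91, 0.29 and 0.61 in livers and 506, 521 and 557 in AML12 hepatocytes, and Psat1, the next, at 1.06 ± 0.2898 and 334 ± 18.3. The serine dehydratase Sds, given above, had the opposite order. Of 25 genes of stress response and amino acid supply, 1 was higher in the livers and 15 in AML12 hepatocytes. The shared chain of amino acid exchangers Slc3a2 was 10.3 times higher (87.1 ± 7.63 and 901 ± 55.1), and also higher were the heat shock proteins Hspa8 (675 ± 46.7 and 5136 ± 315) and Hsp90aa1 (15.6 ± 8.84 and 407 ± 31.6). The endoplasmic reticulum chaperone Hspa5 was not called (162 ± 28.3 and 198 ± 0.882), and Herpud1 was lower in the line (1242 ± 214 and 291 ± 6.15), a call lost with TPM as deposited, without ribosomal protein genes, and without liver 3 (log2 difference of -1.94).

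Chemokines of the line included some of its widest differences. Ccl2, which draws monocytes (gene 20296, chromosome 11, 82035577 to 82037452), stood at 2.84, 1.23 and 2.41 in livers and 2146, 2083 and 1948 in AML12 hepatocytes, 953 times higher. Cxcl5 (0.0846 ± 0.101 and 156 ± 15.9) and Csf1, the macrophage growth factor (6.86 ± 0.11 and 133 ± 5.85), were called too, and Ccl20 was listed at 0 in all livers and stood at 134 ± 12.6 in the line. Ligands made by leukocytes or resting liver were lower, namely Ccl5 (41.6 ± 27.8 and 0.814 ± 0.355), Ccl9 (39.1 ± 1.01 and 8.31 ± 1.13) and Il18 (28.3 ± 3.61 and 0.318 ± 0.159). The call of Ccl9 was lost with TPM as deposited and without ribosomal protein genes. Of 17 compared, 4 were higher in the livers and 8 in AML12 hepatocytes.

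Antioxidant genes were called in both directions. Of 27 compared, 9 were higher in the livers and 6 in AML12 hepatocytes, and the median log2 difference of -0.18 turned to 0.022 with TPM as deposited and 0.23 without ribosomal protein genes. Sod1 (2482 ± 172 and 509 ± 12.5), Gpx1 (3196 ± 183 and 122 ± 3.34) and Nqo1 (24.6 ± 3.45 and 0.0569 ± 0.0986) were lower in the line, with the call of Sod1 lost without ribosomal protein genes. The aldose reductases Akr1b3 (14.5 ± 2.47 and 138 ± 6.77) and Akr1b8 (4.697 ± 0.754 and 137 ± 6.18) were higher. The metallothioneins Mt1 (10986 ± 232 and 1443 ± 108) and Mt2 (5806 ± 302 and 539.8 ± 61.6) were lower in the line, a direction that depended on the livers chosen, since against rMSA livers their log2 differences were 0.996 and 0.83. Nuclear genes of the respiratory chain and citric acid cycle differed little, with 0 of 36 called and a median log2 difference of -0.67, as in Atp5b (1887 ± 13.99 and 1043 ± 9.15) and Cox4i1 (1058 ± 102 and 982 ± 27.6). Of 14 clock genes, 3 were higher in the livers and 0 in AML12 hepatocytes. Of 44 lists with at least 5 compared members, cell type lists included, 21 had a median at least 4-fold lower in the line and 6 at least 4-fold higher.

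**Figure D4:**
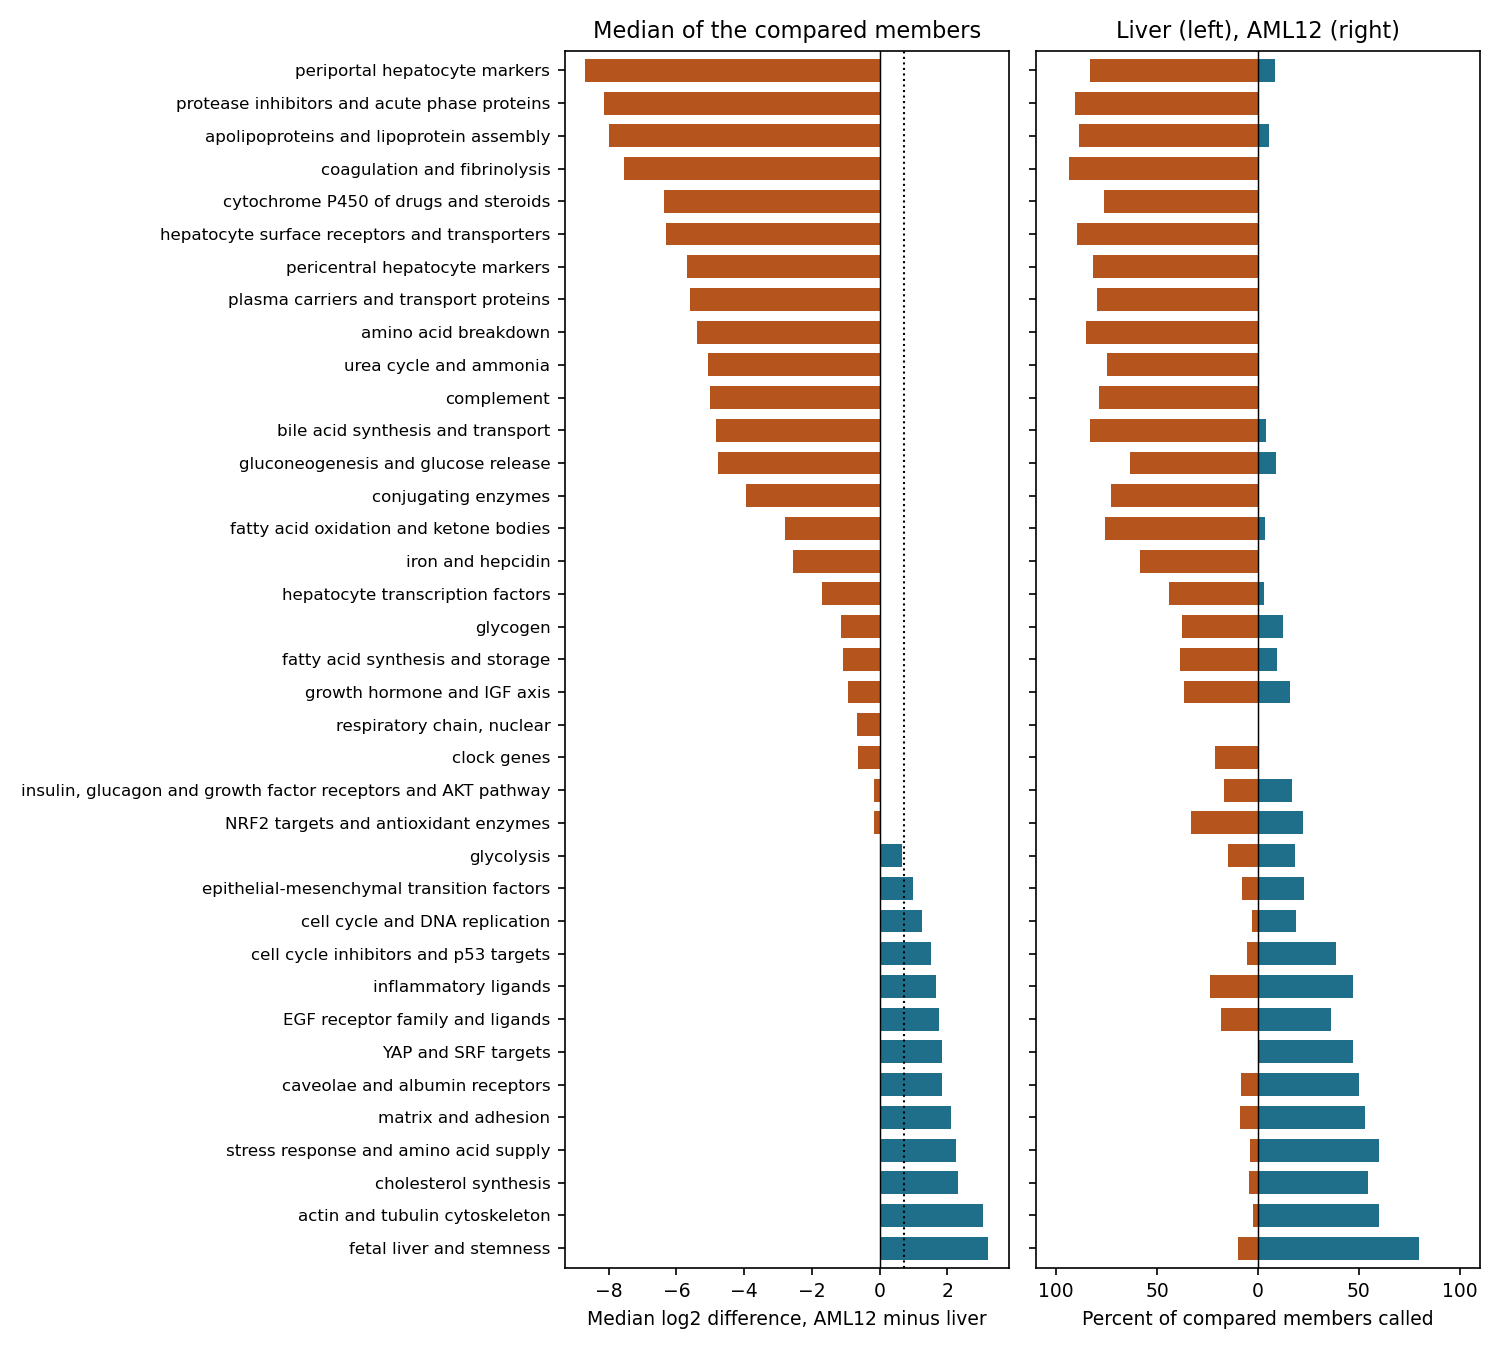
Median log2 difference, AML12 minus liver, over the compared members of each function or zonation list with at least 5 of them (left, with the median of all compared genes as a dotted line), and the percent of those members called higher in liver (orange, to the left) or in AML12 (blue, to the right). Lists of secreted proteins, amino acid breakdown and P450 enzymes lie at the top on the liver side, and cytoskeleton, cholesterol synthesis and stemness lists lie at the bottom on the AML12 side, while the small medians of the glycolysis, insulin and AKT, and NRF2 lists changed sign under other scalings.

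Markers of most other liver cell types were at low levels in the line, with cholangiocyte and mesothelium markers as exceptions. In whole liver a low level can mean few cells of a type or little RNA in each, which cannot be told apart. Hepatocyte markers summed to 78059 to 98087 in livers and 307 to 385 in AML12 hepatocytes over the 10 markers in both tables, and all 10 were called lower in the line, so the cell type given in the labels had its defining markers at low levels. Sums of the line were also lower for Kupffer cells (210.3 to 294 and 30.1 to 40.02), monocytes and other leukocytes (732 to 914 and 6.16 to 7.99), endothelium (219 to 283 and 14.4 to 17.9), stellate cells and fibroblasts (489.9 to 622 and 15.2 to 16.2) and erythroid cells (1295 to 1685 and 0.663 to 1.29). Of the 15 Kupffer cell markers, 9 were in the liver table only, among them Clec4f (58.7 ± 13.2 deposited TPM) and Vsig4 (42.7 ± 20.9). The leukocyte gene Fcer1g (67.3 ± 12.8 in livers) and the fibroblast gene Dcn (168 ± 66.8) were listed at 0 in every AML12 library. The endothelial cadherin Cdh5 was 21.1 ± 2.53 in livers and 0.0402 ± 0.0201 in the line, and the lysozyme Lyz2 125 ± 19.2 and 0.0569 ± 0.0986. T and NK cells (23.5 to 85.6 and 1.28 to 1.97), B and plasma cells (2.699 to 6.99 and 0.332 to 0.422), platelets (4.23 to 5.67 and 0.573 to 1.48), adipocytes (69.4 to 103 and 7.02 to 7.51) and pancreatic acinar cells (6.04 to 7.21 and 0.0804 to 0.311) had low sums in livers and lower ones in the line. Some members stayed measurable in AML12 hepatocytes, such as the iron exporter Slc40a1 (101 ± 19.01 and 26.4 ± 4.87), which other cells use too.

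Markers of cholangiocytes, the cells of bile ducts, summed to 114 to 133 in livers and 1838 to 2011 in the line, and of 10 compared, 2 were higher in the livers and 6 in AML12 hepatocytes. Besides Krt7 and Krt19, the secreted Spp1 was higher (28.5 ± 8.72 and 202 ± 28.4), as was the progenitor factor Sox9 (2.54 ± 0.785 and 15.7 ± 0.736), the latter without a call after median centring. Aqp1, the water channel of bile ducts and vessels, was lower (67.99 ± 1.91 and 0.258 ± 0.02903), Epcam (0.91 ± 0.217 deposited TPM in livers) and Cftr (0.0233 ± 0.0208) were in the liver table only, and Krt23 was 2.75 ± 0.522 and 0.0368 ± 0.0638. The line thus held some cholangiocyte markers and not others, and Krt19 made up most of the sum. Of 7 mesothelium markers, Msln (1.04 ± 0.205 and 294 ± 18.6) and Upk1b (0.274 ± 0.158 and 49.1 ± 2.31) were higher in the line, while Upk3b (0.905 ± 0.368 and 0.1005 ± 0.0725), Lrrn4 (0.347 ± 0.152 and 0) and Bnc1 (0.0231 ± 0.0231 and 0.0301 ± 0.0362) were below 1 TPM in both. Markers of dendritic cells (2.699 to 4.43 and 2.52 to 3.396) and neutrophils (15.7 to 23.8 and 18.6 to 19.6) had sums that overlapped, the latter through S100a8, which was higher in the line (2.08 ± 0.478 and 16.6 ± 0.915), a call lost with median centring.

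**Figure D5:**
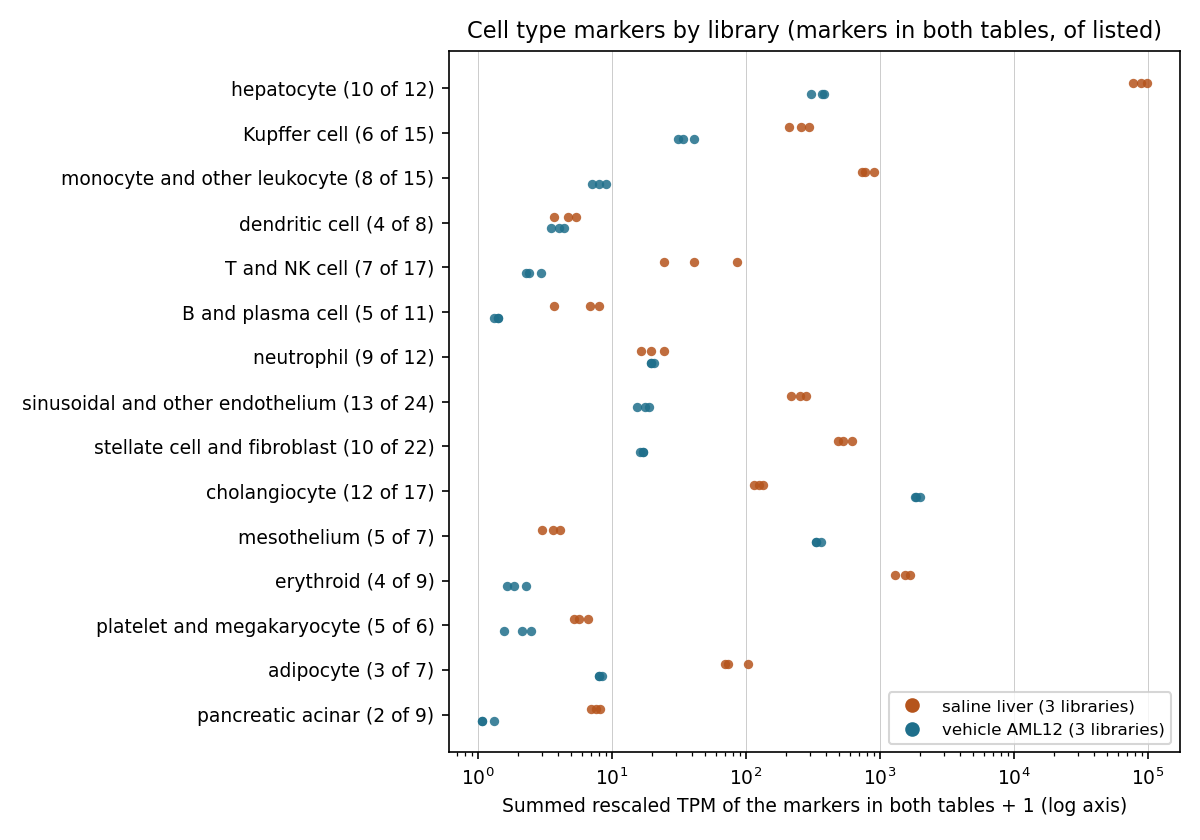
Summed rescaled TPM plus 1 (x axis, log scale) of the markers of each cell type that are in both tables, with 1 point per library for 3 saline livers (orange) and 3 vehicle AML12 libraries (blue), and the number of markers summed and listed beside each name. Hepatocyte markers sum to 78059 to 98087 in livers and 307 to 385 in the line, and cholangiocyte and mesothelium markers are the lists whose sums are higher in the line.

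Some of the widest differences toward the line concern gene models with near copies elsewhere in the genome. Rpl34-ps1, an annotated pseudogene, stood at 0, 0 and 2.51 in livers and 2755, 2917 and 3020.0 in AML12 hepatocytes, while Rpl34, its parent, stood at 286, 325 and 281 and 32.3, 42.5 and 35.5. Rpl34 was looked up after these values were seen. Eno1b, a near copy of Eno1, stood at 0, 1.02 and 0 and 434, 417 and 447. Since the tables list different gene models, reads of such copies may have been given to different members, and these differences cannot be told apart from how the reads were counted. Among the 11066 compared genes that are named and protein-coding in RefSeq, 1132 were higher in livers and 1834 in AML12 hepatocytes, so other gene models made up few of the calls. This restriction keeps named near copies such as the Serpina1 genes, so it cannot show how reads were shared among copies.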

How the data were processed

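Total RNA of 6 samples (3 saline livers, 3 vehicle AML12 libraries) was used here. Per the labels, RNA was extracted with a mirVana kit, and both rRNA depletion and oligo(dT) beads are named. The submitters' processing notes list Trimmomatic 0.33, STAR 2.5.2b, featureCounts of Subread 1.6.0 and the GRCm38 genome, while the annotation, strand setting and way of computing TPM were not given in the sources used here. The authors deposited TPM values per gene in 2 tables, 1 for livers and 1 for AML12 hepatocytes, with depth unknown. No column of either table was left unmapped.

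Genes were joined by identifier, and 23 symbols turned into dates were repaired. Each library was rescaled to a sum of 1000000 over shared genes, 1 was added, and log2 values were averaged. Genes with a mean of at least 1 over the 6 libraries were compared, and called at a log2 difference of 2 without overlap. No test was run between separately normalized tables. Genes named were, for each list, the 4 widest differences in each direction, the 4 highest levels in each group and members in the liver table only, all isoform pairs, and over all genes the 15 widest differences, with a mean of 10 in 1 group, and the 15 highest levels in each group and in each table alone. Exceptions are named as such. Lists held 1124 symbols, of which 1100 were found. The samples and lists were chosen with earlier results of these data known. Python 3.11.15, numpy 2.4.6, pandas 2.3.3 and matplotlib 3.10.9 were used, and the calling was tested on simulated data. Sequences and positions came from RefSeq on GRCm38.p6. Alternatives in scaling, added value, filter, threshold and samples were tried. Restriction to named protein-coding genes was chosen after seeing the data. Of 13 listed genes of the mitochondrial genome, 0 were found by symbol among the deposited genes, so they were not analysed here. Some listed genes and 4 isoform pairs are not reported here.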

Additional observations from a re-analysis of the deposited data

How the results depend on the processing

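No paired analysis was possible because no test was run between the tables, and livers and cultures share no source. Of 473 called list genes, 414 kept the call under all 4 other scalings and 455 under every omission of 1 library. Leaving out 1 library gave 1140 to 1186 genes higher in liver and 1768 to 2038 higher in AML12. With 5 added in place of 1, 746 and 965 genes were called and 2 lists had a median at least 4-fold higher in the line, against 1157, 1904 and 6 as reported. A 2-fold threshold called 1985 and 4717 genes and an 8-fold threshold 711 and 720. Median centring called 947 genes higher in AML12 and left 2 such lists, and 3 such lists remained with rMSA livers in place of saline and with insulin-treated AML12 in place of vehicle. The share of calls held by the livers, 37.8% as reported, was 32.2% with TPM as deposited, 26.9% without ribosomal protein genes, 46.0% without the 50 highest genes and 60.6% with median centring. Of 44 lists, 41 never changed sign. The glycolysis median was -0.062 with median centring. The insulin and AKT median was 0.013 with TPM as deposited, 0.21 without ribosomal protein genes and 0.18 with rMSA livers. The NRF2 median was 0.022 with TPM as deposited, 0.23 without ribosomal protein genes and 0.42 with rMSA-treated AML12. With rMSA livers the log2 difference was 0.996 for Mt1, 0.83 for Mt2 and -0.038 for Hmgcs1. Calls of Apoc2, Selenop, Herpud1, Ccl9, Prom1, Sod1 and Hnf4a were lost under at least 1 scaling that lowers the liver side. So were those of Acadm, Hadh, Hadhb, Echs1, Acadvl and Slc25a20. Calls of Gyg, Jak2, Sox9, S100a8, Hmgcs1, Col4a1, Col4a2, Itgb6 and Thbs1 were lost under at least 1 scaling that lowers the AML12 side. Those of Cavin2 and Pacsin2 were lost in the same way. The cause was not tested. TPM without read counts limits what can be said of genes near 0.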
